A study of Homo sapiens with 24 samples.

Results

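The 10 genes described here encode the pappalysin proteases PAPPA and PAPPA2, the IGF binding proteins IGFBP1 to IGFBP7, and IGF1R, the receptor for insulin-like growth factors (IGFs). They were followed by symbol, mapped from Ensembl gene identifiers, through all 24 RNA-seq libraries of the series, and are 10 of the 60675 genes in its count tables. PAPPA2 was chosen for its rise in HK2 cells with both knockdowns, so its values in every comparison that holds the HK2 shNC or Dsh libraries, between the lines too, are given as a description, without a test. The other 9 genes were taken because they belong to the same pathway, with earlier results of these data known.

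The study asked how loss of the histone demethylase KDM5C and of the transcription factor YY1, alone and together, changed gene expression in kidney cells. ACHN, a human renal cancer line labelled as ccRCC (clear cell renal cell carcinoma), and HK2, a line of human kidney proximal tubular epithelium, were each sequenced in 4 groups of 3 replicates: a non-targeting control hairpin (shNC), a hairpin against KDM5C (shKDM5C), a hairpin against YY1 (shYY1), and both (Dsh). All lines were infected stably with hairpin vectors, grown in DMEM with 10% serum and selected with puromycin. Dsh cells were made by adding a GFP-tagged KDM5C hairpin vector to cells already depleted of YY1 and by selecting on green fluorescence as well, so this second infection and sort cannot be told apart from the loss of both proteins, and whether the sequenced shNC cells also received a GFP vector was not stated. Which of the hairpins designed per gene was sequenced, and whether the replicates were separate infections or cultures, was not stated. The p-values below therefore measure the spread between these libraries, which may be technical.

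IGFBPs bind IGF1 and IGF2 outside the cell and control how much of these ligands can reach IGF1R, a tyrosine kinase that signals through IRS adaptors, PI3K and AKT. Pappalysins are secreted metalloproteinases that cut IGFBPs and so release the ligand: PAPP-A, the product of PAPPA, acts mainly on IGFBP4 and IGFBP5, and PAPP-A2, the product of PAPPA2, on IGFBP3 and IGFBP5. The stanniocalcins STC1 and STC2 inhibit both proteases. IGFBP7 binds IGFs with low affinity and has further partners, and IGFBP6 prefers IGF2.

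PAPPA2 (ENSG00000116183) lies on chromosome 1 of GRCh38 from 176463171 to 176845605 on the plus strand, and PAPPA (ENSG00000182752) on chromosome 9 from 116153804 to 116402322, also on the plus strand. IGFBP1 (ENSG00000146678; chromosome 7, 45888357 to 45893668) and IGFBP3 (ENSG00000146674; chromosome 7, 45912245 to 45921874) are neighbours with 18576 bases and 0 annotated genes between them. IGFBP2 (ENSG00000115457; chromosome 2, 216632828 to 216664436) and IGFBP5 (ENSG00000115461; chromosome 2, 216672105 to 216695525) form a second neighbouring pair, 7668 bases apart. IGFBP4 (ENSG00000141753) lies on chromosome 17 from 40443461 to 40457731, IGFBP6 (ENSG00000167779) on chromosome 12 from 53097436 to 53102345, IGFBP7 (ENSG00000163453) on chromosome 4 from 57030773 to 57110385, and IGF1R (ENSG00000140443) on chromosome 15 from 98648971 to 98964530.

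Because YY1 binds DNA and was one of the targets, the start-site windows of the 10 genes were searched for the YY1 core motif CCATNTT on both strands. RefSeq (GRCh38.p14) gave windows of 300 bases, 250 before and 50 after a start site, for 8 of the 10 genes, all except IGFBP1 and IGFBP7. Only PAPPA2 among these 8 held the motif, which occurred in 15.6% of all 35116 windows of that length. Its window, at chr1:176462925-176463224 on the plus strand, held 3 matches, all on the minus strand, and their first bases lay at -233, -117 and -28 relative to the start site. The windows of PAPPA (chr9:116153541-116153840, plus strand) and IGFBP3 (chr7:45921223-45921522, minus strand) are printed beside it, the former as the other pappalysin and the latter as the IGFBP with the highest level in ACHN shNC cells. Capitals mark the matches, which read as AANATGG on the strand printed.

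PAPPA2: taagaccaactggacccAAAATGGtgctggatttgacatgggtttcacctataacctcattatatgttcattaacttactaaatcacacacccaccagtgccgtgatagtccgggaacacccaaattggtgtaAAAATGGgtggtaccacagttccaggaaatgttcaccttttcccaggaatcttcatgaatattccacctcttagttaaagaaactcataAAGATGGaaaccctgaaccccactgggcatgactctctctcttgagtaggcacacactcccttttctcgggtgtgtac
PAPPA: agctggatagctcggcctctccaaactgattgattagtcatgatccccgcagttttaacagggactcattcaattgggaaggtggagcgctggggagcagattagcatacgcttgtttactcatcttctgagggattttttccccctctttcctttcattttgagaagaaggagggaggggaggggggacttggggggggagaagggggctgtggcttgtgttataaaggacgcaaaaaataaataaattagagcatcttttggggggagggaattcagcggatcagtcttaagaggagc
IGFBP3: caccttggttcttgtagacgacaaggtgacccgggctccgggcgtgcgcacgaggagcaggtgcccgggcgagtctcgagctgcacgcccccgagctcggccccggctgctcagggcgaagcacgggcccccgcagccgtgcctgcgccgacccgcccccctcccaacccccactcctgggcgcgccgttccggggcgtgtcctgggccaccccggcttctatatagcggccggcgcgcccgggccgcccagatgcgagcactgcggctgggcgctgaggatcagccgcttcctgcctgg

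The 3 windows also differed in base composition. PAPPA2 had 44.0% G and C with 3 CG dinucleotides, PAPPA 48.7% with 6, and IGFBP3 74.7% with 36, against a median of 58.7% and 14 CG dinucleotides over all windows. The GC box GGGCGG, found in 45.0% of all windows, was present in those of IGF1R, IGFBP2, IGFBP3, IGFBP4 and IGFBP6, and the TATA box TATAAA, found in 11.5%, in those of PAPPA and IGFBP4. A match shows only that these letters stand in the window. YY1 binding at these windows was not analysed here.

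Libraries held between 15926561 and 24272298 counts on genes, so a library at 0 counts allows at most 3 counts, or 0.124 to 0.188 CPM (counts relative to library size). KDM5C was lower in shKDM5C than in shNC cells by a log2 fold change of -0.73 in ACHN and -1.74 in HK2 cells, and YY1 was lower in shYY1 than in shNC cells by -0.88 and -1.70. In Dsh cells the log2 fold changes were -0.80 (KDM5C) and -0.51 (YY1) in ACHN, and -1.49 for both genes in HK2 cells. YY1 was higher in Dsh than in shYY1 cells, by 0.35 in ACHN and 0.22 in HK2 cells. Replicate 1 of HK2 shKDM5C stood apart: its root mean square log2 difference from the other two replicates was 1.25 and 1.26, compared with 0.532 to 0.750 within every other pair of replicates of any group. It also had 34.1 CPM of KDM5C, against 67.5 and 67.1 CPM in the other two. The epithelial markers PAX8, PAX2, KRT8 and KRT18 were present in both lines. Of the markers of differentiated proximal tubule, GGT1 was present as well, at 69.5–132.7 CPM in ACHN and 143–344 CPM in HK2 libraries, CUBN reached at most 1.16 CPM (ACHN Dsh), and LRP2, AQP1, ANPEP and SLC34A1 stayed at or below 1 CPM. The summed level of these 10 epithelial genes moved with the knockdowns too. It was 2230–2274 CPM in shNC, 2579–2698 in shKDM5C, 2705–2794 in shYY1 and 1639–1806 in Dsh libraries of ACHN, and 2804–2922, 2258–3096, 1908–2036 and 1499–1618 CPM in the same groups of HK2. KRT8 alone went from 1394–1436 CPM in shNC to 651–730 in Dsh libraries of ACHN and from 1756–1856 to 764–850 in those of HK2. KRT18 and PAX2 were lower in Dsh than in shNC libraries of both lines as well. PAX8 and GGT1 went the other way. PAX8 rose from 537–550 to 696–754 CPM in ACHN and from 243–260 to 298–316 in HK2. GGT1 rose from 69.5–71.9 to 118–133 CPM in ACHN and from 190–210 to 217–222 in HK2. In each line 0 of 4 blood cell markers and 1 of 4 endothelial markers passed 1 CPM (VWF in ACHN, PECAM1 in HK2), and the summed level of each list stayed at or below 1.78 CPM. Among 5 fibroblast markers, COL1A1 and PDGFRB passed it in ACHN, where the summed level of the list moved with the knockdowns, from 586–636 CPM in shNC to 74.6–79.1 in shKDM5C, 190–197 in shYY1 and 135–152 in Dsh cells. In HK2 cells, where DCN and LUM passed it too, the sum was 41.8–43.6 CPM in shNC, 28.2–38.4 in shKDM5C, 54.7–62.6 in shYY1 and 93.0–102.9 in Dsh cells. Whether the epithelial or the fibroblast list has a part in the results below was not tested.

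Levels are given in CPM scaled with TMM (trimmed mean of M-values) factors over all 24 libraries, and as CPM per kb of exon where genes are compared with each other. In bulk RNA a change in the share of cells that express a gene cannot be told apart from a change in RNA per cell. Fold changes and their standard errors (SE) came from edgeR, and a gene is said to be higher or lower when its Benjamini-Hochberg adjusted p over all genes tested was under 0.05. Some genes reached the filter on low counts in all libraries of either group but not of the other. Such a gene can have entered the test because its levels differed between the groups, although it need not differ. No p is therefore given for it, and the counts of genes are also given without such genes, a choice made after the data were seen. With 3 libraries against 3, an exact permutation test of a single gene cannot go below p = 0.1.

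PAPPA2 was low in control cells of both lines, with 4 to 8 counts per HK2 and 13 to 22 per ACHN shNC library, and its level was above control in Dsh cells of both. In HK2 cells it had 0.219, 0.276 and 0.412 CPM in shNC, 0.391, 0.365 and 0.273 CPM in shKDM5C, 5.29, 4.95 and 6.93 CPM in shYY1, and 25.2, 27.2 and 27.6 CPM in Dsh libraries. The shNC and shKDM5C values overlapped, all shYY1 values lay above them, and all Dsh values lay above shYY1. The means were 0.302 ± 0.0991, 0.343 ± 0.0621, 5.72 ± 1.06 and 26.7 ± 1.27 CPM (SD, n = 3 each). The shNC value rests on 17 counts over 3 libraries, compared with 293 in shYY1 and 1379 in Dsh cells.

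Against shNC, the fitted log2 fold change of PAPPA2 in HK2 shYY1 cells was 4.20 (SE 0.332, not tested), or 18.4-fold. The shNC libraries of this comparison are those that served to choose the gene. The ratio of summed counts was 18.8, with an exact 95% interval for counting error of 11.6 to 32.8. For HK2 Dsh against shNC, the comparison in which PAPPA2 was selected, the fitted log2 fold change was 6.42 (SE 0.203, not tested) and the ratio of summed counts 87.7 (54.6 to 151). In HK2 shKDM5C cells PAPPA2 did not pass edgeR's filter on low counts. Its 18 counts there gave a ratio to shNC of 1.12, with an interval of 0.544 to 2.31.

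ACHN cells took no part in the choice of PAPPA2. It had 0.682, 1.19 and 1.19 CPM in shNC, 1.25, 1.41 and 0.871 CPM in shKDM5C, 1.07, 1.40 and 1.18 CPM in shYY1, and 4.32, 4.54 and 3.59 CPM in Dsh libraries. The first 3 groups overlapped, and every Dsh value lay above every other ACHN value. The log2 fold change against shNC was 0.19 in shKDM5C (SE 0.320, adjusted p = 0.640) and 0.23 in shYY1 (SE 0.313, adjusted p = 0.571), neither of which passed the test. In Dsh cells PAPPA2 was higher by 2.02 (SE 0.248, adjusted p = 9.54e-07, edgeR), or 4.06-fold. Compared with shYY1, the cells from which Dsh cells were made, it was higher by 1.77 (SE 0.226, adjusted p = 2.97e-06).

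PAPPA moved differently from PAPPA2. In ACHN cells it had 5.87, 7.33 and 5.63 CPM in shNC, 7.26, 5.29 and 6.37 CPM in shKDM5C, 26.3, 27.5 and 24.2 CPM in shYY1, and 2.57, 2.93 and 2.32 CPM in Dsh libraries. All shYY1 values were above, and all Dsh values below, the shNC values. PAPPA was 4.08-fold higher in shYY1 (log2 fold change 2.03, SE 0.0963, adjusted p = 1.16e-18, edgeR) and 2.41-fold lower in Dsh than in shNC cells (-1.27, SE 0.176, adjusted p = 4.44e-06). From shYY1 to Dsh cells the log2 fold change was -3.32 (SE 0.119, adjusted p = 3.46e-13).

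HK2 cells had more PAPPA, with 78.9, 87.4 and 85.8 CPM in shNC, 52.3, 49.1 and 45.0 CPM in shYY1, and 65.8, 67.9 and 71.7 CPM in Dsh libraries. These groups did not overlap. Against shNC, log2 fold changes of -0.79 in shYY1 (SE 0.0679, adjusted p = 1.11e-08) and -0.30 in Dsh cells (SE 0.0592, adjusted p = 9.73e-05, edgeR) were found, and Dsh exceeded shYY1 by 0.49 (SE 0.0702, adjusted p = 3.13e-06). The shYY1 effect on PAPPA differed between the lines by 2.83 on the log2 scale, ACHN minus HK2 (SE 0.122, adjusted p = 6.15e-17).

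The exons of PAPPA share 2450 of 11573 bases, 21.2%, with the antisense gene PAPPA-AS1, which was at 0 counts in all libraries. Counting did not use strand, so reads from the shared stretch cannot be assigned, and levels per length of PAPPA may be too low. The exons of PAPPA2 overlap no other gene.

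Per kb of exon, PAPPA2 made up 14.6% ± 3.68 of the summed level of both pappalysins in ACHN shNC cells (SD, n = 3), 16.7% ± 4.79 in shKDM5C, 4.71% ± 0.522 in shYY1 and 62.7% ± 1.12 in Dsh cells. The sum itself was 0.636 ± 0.0931 CPM per kb in shNC and 0.605 ± 0.0709 in Dsh cells, ranges that overlapped (exact two-sided permutation p = 0.7), and 2.36 ± 0.155 in shYY1 cells (p = 0.1, the smallest this design can give). In ACHN Dsh cells PAPPA2 was thus the more abundant pappalysin transcript, with 0.380 against 0.226 CPM per kb and no overlap. In HK2 cells PAPPA stayed the more abundant in all groups, while the share of PAPPA2, chosen on these libraries, was 0.377% ± 0.113 in shNC, 11.1% ± 2.53 in shYY1 and 29.2% ± 0.514 in Dsh cells.

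**Figure D1:**
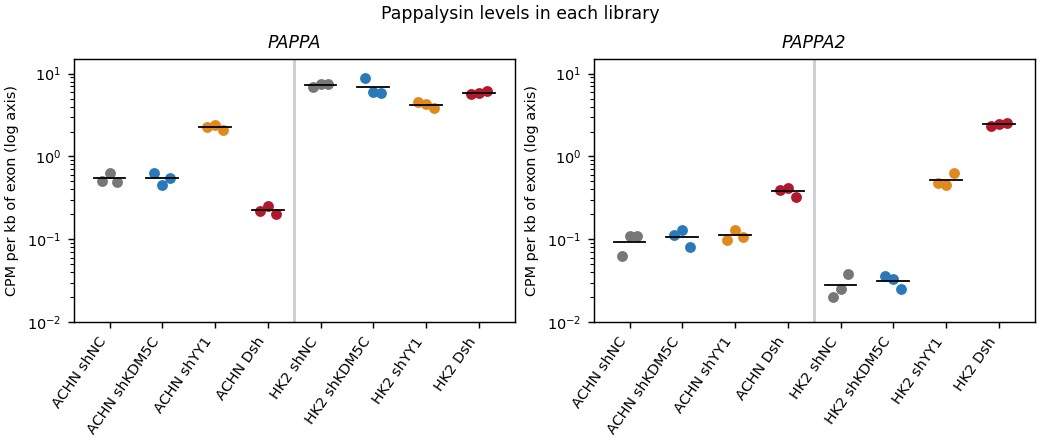
Level of PAPPA (left) and PAPPA2 (right) in each of the 24 libraries, in CPM per kb of exon on a log axis, with points for libraries and black lines for the mean of 3. PAPPA2 was highest in the Dsh group of each line, at 0.380 CPM per kb in ACHN and 2.44 in HK2, whereas PAPPA was highest in ACHN shYY1 cells within ACHN and in shNC cells within HK2.

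Among the binding proteins, IGFBP3, the main carrier of IGFs in serum and a substrate of PAPP-A2, had the highest level per length in ACHN shNC cells. It had 736, 677 and 729 CPM in shNC, 202, 185 and 206 CPM in shKDM5C, 1194, 1116 and 1207 CPM in shYY1, and 88.9, 79.4 and 87.0 CPM in Dsh libraries of ACHN. The 4 groups did not overlap. IGFBP3 was 3.65-fold lower in shKDM5C (log2 fold change -1.87, SE 0.0388, adjusted p = 8.33e-23, edgeR), 1.62-fold higher in shYY1 (0.69, SE 0.0296, adjusted p = 5.55e-20) and 8.35-fold lower in Dsh cells (-3.06, SE 0.0534, adjusted p = 1.62e-18).

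In HK2 cells IGFBP3 was less abundant, with 86.8, 85.1 and 83.5 CPM in shNC, 94.5, 105 and 103 CPM in shYY1, and 49.5, 44.5 and 46.7 CPM in Dsh libraries. Its order was the same as in ACHN for these 3 groups, shYY1 above shNC above Dsh, with no overlap. It was higher in shYY1 by a log2 fold change of 0.24 (SE 0.0585, adjusted p = 0.00307) and lower in Dsh cells, at -0.86 (SE 0.0612, adjusted p = 3.64e-13, edgeR). Both effects were larger in ACHN, by 0.46 for shYY1 (SE 0.0634, adjusted p = 1.03e-06) and by -2.18 for Dsh (SE 0.0748, adjusted p = 1.62e-19).

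IGFBP7, the low-affinity member of the family, rose where IGFBP3 fell in ACHN Dsh cells. It had 59.5, 60.5 and 66.4 CPM in shNC, 140, 99.1 and 124 CPM in shKDM5C, 93.7, 93.8 and 98.7 CPM in shYY1, and 595, 538 and 550 CPM in Dsh libraries of ACHN. Every knockdown library lay above every shNC library. The log2 fold change was 0.95 in shKDM5C (SE 0.0757, adjusted p = 6.55e-11), 0.60 in shYY1 (SE 0.0440, adjusted p = 1.54e-13) and 3.18 in Dsh cells (SE 0.0562, adjusted p = 1.67e-18, edgeR), the last a 9.07-fold difference.

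In HK2 cells the same gene had 240, 219 and 230 CPM in shNC, 169, 187 and 184 CPM in shYY1, and 314, 319 and 270 CPM in Dsh libraries. The shYY1 values were all below and the Dsh values all above shNC. Their log2 fold changes were -0.36 (SE 0.0529, adjusted p = 2.08e-05) and 0.39 (SE 0.0519, adjusted p = 2.20e-07, edgeR). The shYY1 effect had opposite signs in the lines, and differed between them by 0.97 (SE 0.0703, adjusted p = 6.08e-12). Exons of IGFBP7 share 364 of 1930 bases with POLR2B and IGFBP7-AS1 on the other strand. POLR2B had a group mean between 135 and 180 CPM in all 8 groups and IGFBP7-AS1 at most 22 counts in any library. Reads from the shared stretch cannot be assigned, so levels per length of IGFBP7, like those of PAPPA, may be too low.

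IGFBP6, which prefers IGF2, was lower in Dsh than in shNC cells of both lines. In ACHN it had 122, 120 and 113 CPM in shNC, 86.2, 90.8 and 81.1 CPM in shKDM5C, 81.8, 78.2 and 82.9 CPM in shYY1, and 33.8, 28.0 and 34.5 CPM in Dsh libraries. The 2 single knockdowns overlapped with each other, below shNC and above Dsh. The log2 fold changes against shNC were -0.48 (SE 0.0432, adjusted p = 6.55e-10), -0.57 (SE 0.0390, adjusted p = 2.13e-14) and -1.87 (SE 0.0676, adjusted p = 3.40e-14, edgeR). In HK2 cells IGFBP6 had 23.0, 22.7 and 24.1 CPM in shNC and 15.3, 14.6 and 14.0 CPM in Dsh libraries, without overlap, and a log2 fold change of -0.67 (SE 0.101, adjusted p = 1.50e-06). In HK2 shYY1, at 26.1, 21.2 and 25.7 CPM, it overlapped with shNC and did not pass the test, with a log2 fold change of 0.06 (SE 0.0971, adjusted p = 0.707).

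IGFBP4, the main substrate of PAPP-A, went opposite ways in the Dsh cells of the lines. In ACHN it had 82.0, 77.1 and 83.3 CPM in shNC and 101, 101 and 97.6 CPM in Dsh libraries, and in HK2 34.4, 26.8 and 27.9 CPM in shNC and 13.0, 12.3 and 12.5 CPM in Dsh libraries. Neither pair of groups overlapped. The log2 fold changes were 0.31 in ACHN (SE 0.0493, adjusted p = 2.10e-05) and -1.24 in HK2 cells (SE 0.108, adjusted p = 3.44e-11), and the difference between them was 1.57 (SE 0.109, adjusted p = 1.06e-12, edgeR). HK2 shYY1 cells, at 14.4, 11.5 and 15.4 CPM, overlapped with Dsh cells and were lower than shNC by -1.12 (SE 0.118, adjusted p = 2.11e-07). In ACHN it had 106, 98.1 and 92.1 CPM in shKDM5C and 80.8, 74.7 and 81.4 CPM in shYY1 libraries. IGFBP4 was higher in shKDM5C by 0.28 (SE 0.0469, adjusted p = 1.78e-05) and did not pass the test in shYY1 cells (-0.05, SE 0.0429, adjusted p = 0.317).

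IGFBP5 and IGFBP2, the neighbouring pair on chromosome 2, were low in ACHN and lower with each knockdown. IGFBP5 had 6.08, 6.96 and 4.66 CPM in shNC, 1.84, 1.18 and 1.41 CPM in shKDM5C, 0.427, 0.539 and 0.840 CPM in shYY1, and 0, 0.0554 and 0.204 CPM in Dsh libraries. IGFBP2 had 1.68, 1.78 and 2.06 CPM in shNC, 0.650, 0.956 and 0.544 CPM in shKDM5C, 0.320, 0.485 and 0.224 CPM in shYY1, and 0, 0.111 and 0.0815 CPM in Dsh libraries. For both genes the 4 groups stood in the order shNC, shKDM5C, shYY1, Dsh without overlap.

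Against shNC, IGFBP5 was lower by a log2 fold change of -2.003 in shKDM5C (SE 0.208, adjusted p = 8.33e-09, edgeR). Its shYY1 and Dsh values, and those of IGFBP2 in every ACHN knockdown, entered the fit through the shNC libraries alone and are given as ratios of summed counts with exact 95% intervals for counting error. In shYY1 cells IGFBP5 was 9.87-fold lower than in shNC cells (6.89 to 14.6). IGFBP2 was 2.57-fold lower in shKDM5C (1.76 to 3.82) and 5.33-fold lower in shYY1 cells (3.25 to 9.22). In Dsh cells only 6 counts of IGFBP5 and 4 of IGFBP2 remained over 3 libraries, against 331 and 103 in shNC. The ratios of summed counts were 61.0-fold lower for IGFBP5 (27.7 to 167) and 28.5-fold lower for IGFBP2 (10.8 to 106). The fitted fold change of IGFBP5 depends on Dsh replicate 3, which held 5 of the 6 counts: it was -5.84 with it and -7.46 without it.

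Neither gene was expressed at a measurable level in HK2 cells. IGFBP5 had 1 count over the 3 shNC libraries, 1 over the 3 Dsh libraries and 0 in the rest, and IGFBP2 had 3 and 1 counts in those groups and 0 in the rest. No fold change is given for them within HK2. IGFBP1, a binding protein induced in liver and decidua, was also low, with at most 16 counts in any library. It was tested in ACHN shKDM5C against shNC, where the log2 fold change was 0.02 (SE 0.491, adjusted p = 0.971), and failed the filter on low counts in the other 5 comparisons with shNC. Its summed counts in ACHN were 27 in shNC, 27 in shKDM5C, 11 in shYY1 and 6 in Dsh cells. From shNC to Dsh that is 4.98-fold lower after scaling, with an exact 95% interval for counting error of 2.01 to 14.7.

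IGF1R, the receptor, moved little. It had 204, 193 and 196 CPM in shNC, 208, 218 and 217 CPM in shKDM5C, 247, 246 and 236 CPM in shYY1, and 259, 281 and 278 CPM in Dsh libraries of ACHN, 4 groups that did not overlap. Its log2 fold changes were 0.10 (SE 0.0345, adjusted p = 0.0142), 0.28 (SE 0.0320, adjusted p = 5.83e-09) and 0.47 (SE 0.0463, adjusted p = 5.17e-08, edgeR). The first was lost without shNC replicate 2 (0.09), without shKDM5C replicate 3 (0.09) and with scaling to total counts (0.06). In HK2 cells IGF1R had 148, 156 and 147 CPM in shNC, 185, 172 and 171 CPM in shYY1, and 185, 183 and 191 CPM in Dsh libraries, and both knockdown groups lay above shNC. They were higher by 0.23 (SE 0.0517, adjusted p = 0.00193) and 0.31 (SE 0.0465, adjusted p = 1.43e-06).

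**Figure D2:**
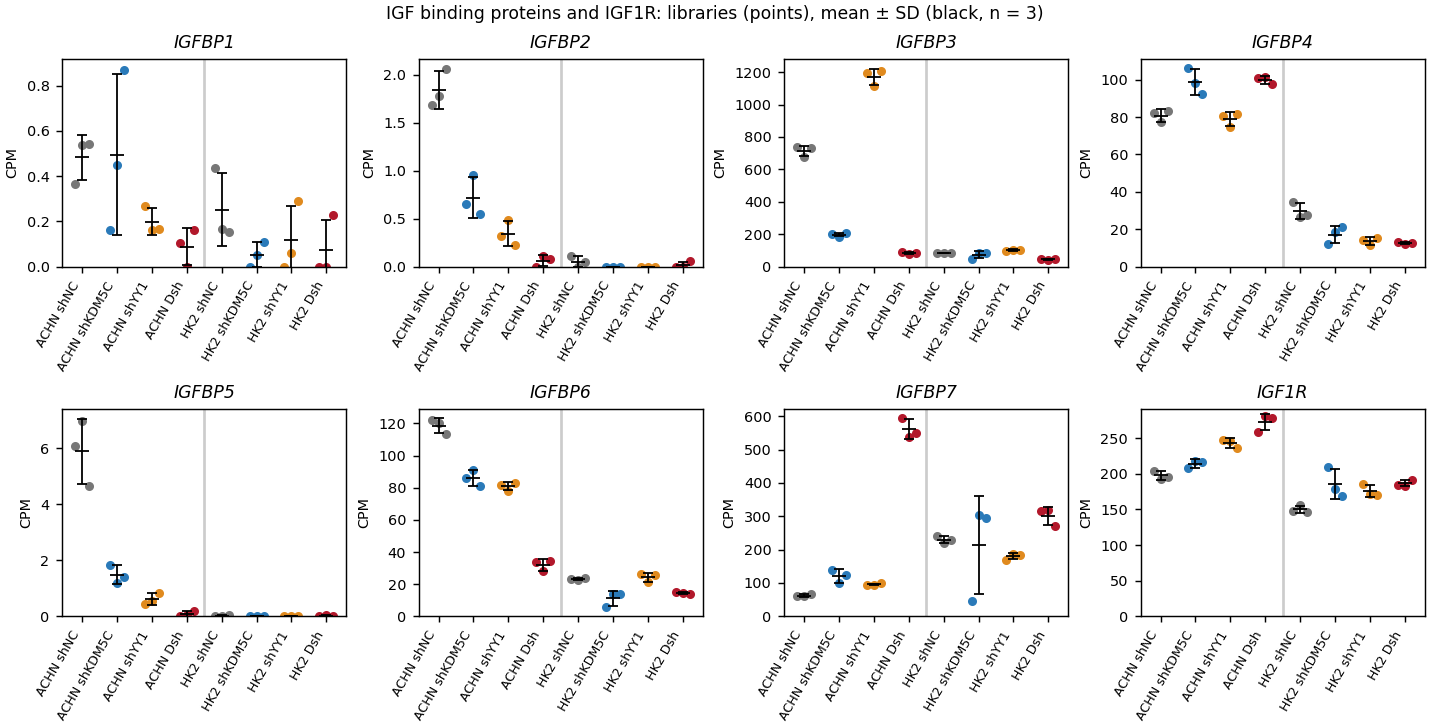
CPM of IGFBP1 to IGFBP7 and IGF1R in each library (points) with the group mean and SD (black, n = 3), on linear axes that start at 0. IGFBP3 ran from 79.4 to 1207 CPM within ACHN, IGFBP7 reached 595 CPM in ACHN Dsh cells, and IGFBP2 and IGFBP5 were near 0 in all HK2 libraries.

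HK2 shKDM5C cells have to be read with and without replicate 1. With all libraries, 0 of the 6 genes that passed the filter were called, in a comparison that called 0.668% of 16161 genes as higher, 0.656% as lower and 0.501% past an absolute log2 fold change of 1.5. Of the 6 genes, 3 had an unadjusted p under 0.05 in edgeR, namely IGFBP4 (-0.77), IGFBP6 (-1.04) and IGF1R (0.35), and DESeq2 called 2. Without replicate 1, 22.3% of 16642 genes and 5 of the 6 were called: PAPPA (-0.31), IGFBP4 (-0.60), IGFBP6 (-0.76), IGFBP7 (0.37) and IGF1R (0.20), while IGFBP3 was at 0.01 and did not pass the test. IGFBP7 changed sign, because replicate 1 had 45.6 CPM and the other two had 302 and 294 CPM. IGFBP6 was at 5.67, 13.7 and 14.0 CPM and IGFBP4 at 11.999, 18.4 and 21.0 CPM in these libraries, all below every shNC library. IGF1R, at 209, 179 and 168 CPM, was above every shNC library. PAPPA had 102, 69.7 and 66.9 CPM, with replicate 1 above and the other two below shNC. IGFBP3 had 50.5, 86.2 and 86.5 CPM, with replicate 1 below shNC.

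Counted over the genes that passed the filter, each comparison can be set against the share of all genes called in it. In ACHN shKDM5C cells 3 of 10 were higher and 4 lower, where 28.9% of 16184 genes were higher and 27.7% lower. In ACHN shYY1 cells 4 of 9 were higher and 3 lower, where 24.2% and 24.5% of 16370 genes were. In ACHN Dsh cells 4 of 9 were higher and 5 lower, where 30.7% and 32% of 16454 genes were. With such shares of all genes called, a call says little about a single gene, and the size of the change was counted as well. Past an absolute log2 fold change of 1.5 were 2 of 10 in shKDM5C (3.34% of all genes), 3 of 9 in shYY1 (3.13%) and 6 of 9 in Dsh cells (8.42%). The 6 were PAPPA2 and IGFBP7 with higher levels, and IGFBP2, IGFBP3, IGFBP5 and IGFBP6 with lower. Without the genes that reached the filter through shNC cells alone, 3 of 9 were higher, 3 lower and 2 past the fold threshold in shKDM5C (IGFBP2 left out), and 4 of 7 were higher, 1 lower and 1, PAPPA, past it in shYY1 cells (IGFBP2 and IGFBP5 left out). In Dsh cells, with the same pair left out, 4 of 7 were higher, 3 lower and 4 past it, namely PAPPA2, IGFBP7, IGFBP3 and IGFBP6. Shares of all genes, here and below, were taken over all genes tested, also those past the filter in 1 group only.

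In HK2, PAPPA2 was left out of these counts. In shYY1 cells 2 of 6 were higher and 3 lower, where 14.3% and 14.7% of 16071 genes were, and 0 of the 6 passed the fold threshold (1.29% of all genes). In Dsh cells 2 of 6 were higher and 4 lower, where 25.5% and 24.3% of 16217 genes were, and 0 of the 6 passed the fold threshold, against 4.3%. With all 4 groups of HK2 in a single fit, which takes in shKDM5C replicate 1, 2 genes stayed called in shYY1 (PAPPA and IGFBP4) and 3 in Dsh cells (IGFBP3, IGFBP4 and IGFBP6).

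**Figure D3:**
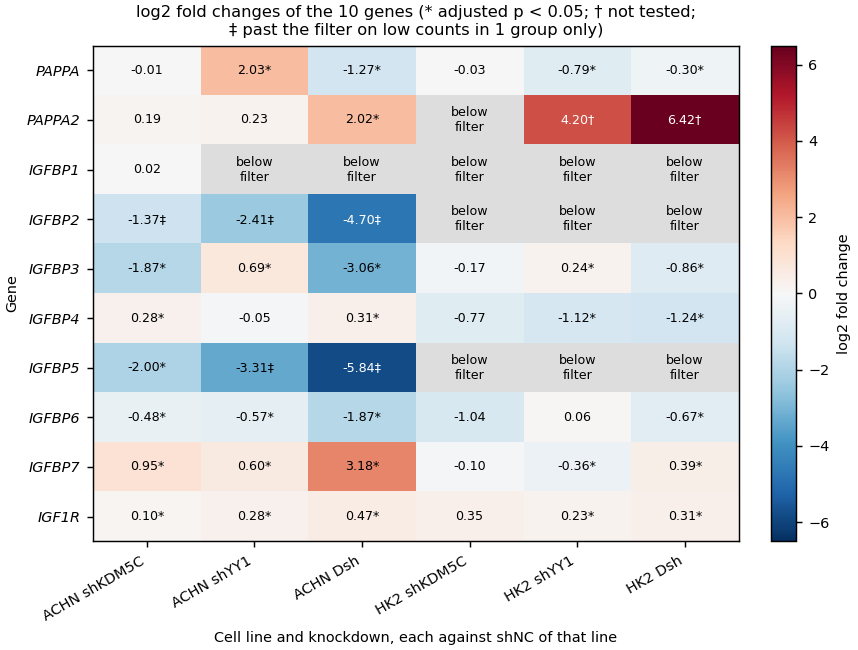
Fitted log2 fold change of each of the 10 genes against shNC of the same line, in colour and in figures, with an asterisk where the adjusted p was under 0.05, a dagger for PAPPA2 in HK2 cells, which was not tested, a double dagger where a gene reached the filter on low counts in 1 group only, and grey where a gene failed the filter on low counts. ACHN Dsh cells had the widest span, from -5.84 for IGFBP5 to 3.18 for IGFBP7.

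The mix of binding proteins was then compared as shares of their summed level per length. In ACHN shNC cells IGFBP3 made up 48.9% ± 1.03 (SD, n = 3), IGFBP6 29.0% ± 1.43, IGFBP4 11.5% ± 0.243 and IGFBP7 10.1% ± 0.617. The IGFBP7 shares may be too low, as part of its exons is shared with other genes, so its order with IGFBP4 here is not settled. In ACHN Dsh cells IGFBP7 made up 76.5% ± 0.593, IGFBP4 11.97% ± 0.608, IGFBP6 6.595% ± 0.586 and IGFBP3 4.90% ± 0.150. The shares of IGFBP3, IGFBP6 and IGFBP7 did not overlap between these groups (exact two-sided permutation p = 0.1 each, the smallest possible), whereas those of IGFBP4 did (p = 0.2).

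The summed level was 319 ± 8.18 CPM per kb in ACHN shNC and 380 ± 18.6 in Dsh cells, without overlap (p = 0.1, exact permutation test). It was 219 ± 12.7 in shKDM5C and 405 ± 15.3 in shYY1 cells, where IGFBP3 made up 19.8% ± 0.966 and 63.3% ± 0.350. In HK2 cells IGFBP7 led in every group, with 70.2% ± 0.256 in shNC, 66.3% ± 1.85 in shYY1 and 84.97% ± 1.12 in Dsh cells. The HK2 sum was 169 ± 7.35, 141 ± 4.88 and 183 ± 14.4 CPM per kb in these groups, and the ranges of shNC and Dsh overlapped. In HK2 shKDM5C cells IGFBP7 made up 53.0% of the sum in replicate 1 and 80.5% and 79.4% in the other two.

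**Figure D4:**
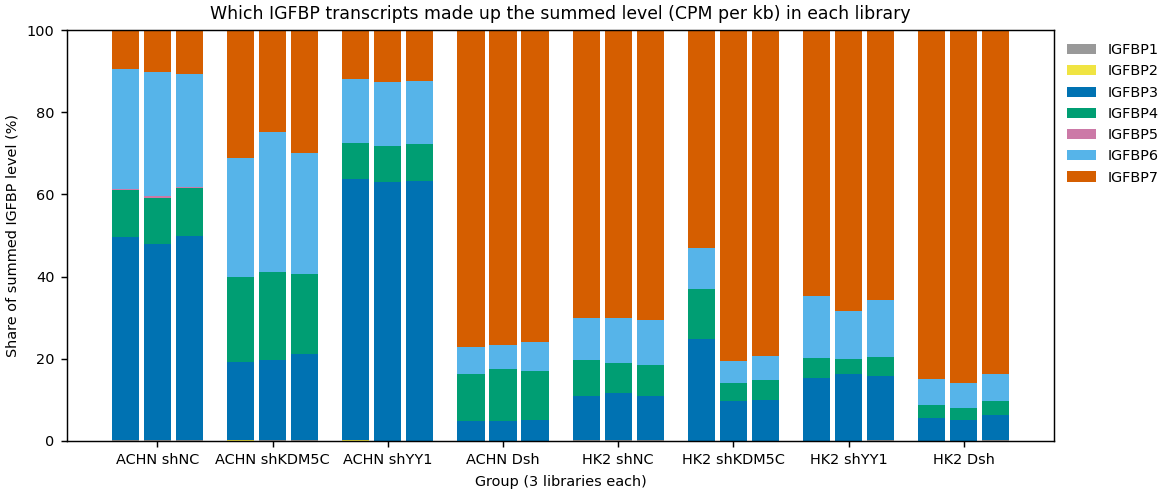
Share of each IGFBP in the summed IGFBP level (CPM per kb of exon) of each library, in percent, with 3 bars per group. IGFBP3 (dark blue) made up 47.7% to 49.6% in ACHN shNC and IGFBP7 (orange) 75.9% to 77.1% in ACHN Dsh libraries, while IGFBP1, IGFBP2 and IGFBP5 were each under 1% everywhere.

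Ranked by level per length, IGFBP3 (156 CPM per kb), IGFBP6 (92.7), IGFBP4 (36.7), IGFBP7 (32.2) and IGF1R (14.6) led in ACHN shNC cells, and PAPPA2 was last at 0.0933, with no overlap between neighbours in this order. Because 364 of the 1930 exonic bases of IGFBP7 are shared, its level may be too low and its place below IGFBP4 is not settled. In ACHN Dsh cells the order was IGFBP7 (291), IGFBP4 (45.4), IGFBP6 (25.1), IGF1R (20.2), IGFBP3 (18.6), PAPPA2 (0.380) and PAPPA (0.226), and of these neighbours only IGF1R and IGFBP3 overlapped. In HK2 shNC cells IGFBP7 (119) was followed by IGFBP3 (18.6) and IGFBP6 (18.2), which overlapped, then IGFBP4 (13.5), IGF1R (11.1) and PAPPA (7.26). In HK2 Dsh cells PAPPA (5.92) and IGFBP4 (5.72) overlapped, and PAPPA2 followed at 2.44.

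Control cells of the lines differed in 6 of the 6 genes that reached the filter in both lines. Over all 16988 genes tested, also those that reached it in 1 line only, 76.6% differed. PAPPA and IGFBP7 were lower in ACHN than in HK2 shNC cells, by log2 fold changes of -3.75 (SE 0.0828, adjusted p = 1.36e-24) and -1.90 (SE 0.0463, adjusted p = 1.28e-23, edgeR). IGFBP3 (3.06), IGFBP6 (2.34), IGFBP4 (1.43) and IGF1R (0.39) were higher in ACHN. IGFBP5 and IGFBP2 reached the filter through ACHN alone, and their summed counts were 330-fold (exact 95% interval for counting error 58.7 to 13056) and 34.2-fold (11.4 to 168) those of HK2. PAPPA2, which also reached it through ACHN alone, was at a fitted 1.71, not tested. Anything that differs between the lines beside their cell type cannot be told apart from it here.

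Adding the KDM5C hairpin to YY1-depleted cells was examined next. In ACHN, 7 of 7 genes tested differed between Dsh and shYY1 cells, where 64.6% of all genes did: PAPPA2 (1.77), IGFBP7 (2.56), IGFBP4 (0.35) and IGF1R (0.17) were higher, and PAPPA (-3.32), IGFBP3 (-3.77) and IGFBP6 (-1.32) lower. In HK2 cells 4 of 6 differed, where 47.7% of all genes did: PAPPA (0.49) and IGFBP7 (0.74) were higher, IGFBP3 (-1.10) and IGFBP6 (-0.73) lower, and IGFBP4 (-0.12) and IGF1R (0.09) did not pass the test. With all 4 HK2 groups in the fit, PAPPA and IGFBP7 were no longer called. PAPPA2, selected on the Dsh libraries, was at 2.22 in that comparison.

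The interaction is the log2 Dsh effect minus both single-knockdown effects, and is 0 where these add up. In ACHN 5 of 10 genes departed from it, where 55.6% of 17228 genes did. PAPPA (-3.32, SE 0.195, adjusted p = 2.19e-13), IGFBP3 (-1.91, SE 0.0678, adjusted p = 1.01e-17) and IGFBP6 (-0.85, SE 0.0838, adjusted p = 3.67e-09) were lower than the sum. IGFBP7 (1.61, SE 0.107, adjusted p = 2.38e-12) and PAPPA2 (1.58, SE 0.389, adjusted p = 0.00126, edgeR) were higher than the sum. The targeted genes departed from the sum in ACHN as well, KDM5C by -0.42 (adjusted p = 6.48e-06) and YY1 by 0.28 (adjusted p = 0.00125, edgeR). KDM5C was also higher in shYY1 than in shNC cells, by 0.34 in ACHN and 0.35 in HK2. Whether these levels have a part in the interactions was not tested. The 10 also held IGFBP1, IGFBP2 and IGFBP5, which were near the floor in Dsh cells. Their interaction cannot show whether the effects add up. For IGFBP5, with 6 counts in Dsh cells, the fitted value was -0.55 (SE 0.662), and it ranged from -2.18 to -0.04 under the alternatives. For IGFBP2, with 4 counts, it was -0.93 (SE 0.781), with a range of -1.38 to -0.43. In HK2 cells 1 of 6 departed, IGFBP3 (-0.94, SE 0.207, adjusted p = 0.0138), where 9.61% of 17093 genes did, and this call was lost with scaling to total counts (-0.87). Without shKDM5C replicate 1, 28.7% of all genes and 4 of the 6 did: PAPPA (0.81), IGFBP3 (-1.11), IGFBP4 (0.48) and IGFBP7 (0.38).

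Effects were also compared between the lines, ACHN minus HK2. The targeted genes were themselves lowered less in ACHN. By the same measure KDM5C differed by 1.02 for shKDM5C and 0.71 for Dsh, and YY1 by 0.84 for shYY1 and 0.99 for Dsh. Whether this has a part in the differences below was not tested. The shKDM5C effect differed for 2 of 9 genes, where 11.9% of 17948 genes did, IGFBP3 (-1.69) and IGFBP4 (1.05), and for 4 of 9 without HK2 shKDM5C replicate 1, where 33.9% of all genes did. The shYY1 effect differed for 5 of 8, where 33.1% of 18010 did, and the Dsh effect for 6 of 8, where 46% of 18087 did. The fitted difference of PAPPA2 for shYY1 was -3.95 (SE 0.477, not tested). IGFBP2 and IGFBP5, near 0 in HK2, are among the 9, 8 and 8 genes counted here, and IGFBP1, with few counts in HK2, is among the 9. For these genes no difference is given, and the counts do not show that their effects were alike in the lines.

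Of 40 further genes of the IGF axis, ligands, receptors, inhibitors, other IGFBP proteases and signalling proteins, 7 did not pass the filter in any comparison with shNC, among them the ligands IGF1 and INS. In ACHN shKDM5C cells 9 of 31 tested were higher and 12 lower (28.9% and 27.7% of all genes), in shYY1 cells 14 of 32 higher and 9 lower (24.2% and 24.5%), and in Dsh cells 11 of 31 higher and 10 lower (30.7% and 32%). Without the genes that reached the filter in 1 group only, these were 9 and 10 of 29, 13 and 9 of 31, and 11 and 7 of 28. In HK2 shKDM5C cells 1 of 28 was higher and 0 lower (0.668% and 0.656% of all genes), in shYY1 cells 8 of 29 higher and 4 lower (14.3% and 14.7%), and in Dsh cells 13 of 28 higher and 4 lower (25.5% and 24.3%). Without FOXO1, which reached the filter in 1 group only, these were 1 and 0 of 27 in shKDM5C and 13 and 4 of 27 in Dsh cells. The median log2 fold change of the list lay between -0.13 and 0.23 in the 6 comparisons, and that of all genes between -0.01 and 0.01. Without HK2 shKDM5C replicate 1, 13 list genes were called in that comparison, where 22.3% of 16642 genes were.

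The stanniocalcins, which inhibit pappalysins, were lower in every ACHN knockdown. STC2 had 94.6 ± 3.91 CPM in shNC, 71.4 ± 2.23 in shKDM5C, 28.8 ± 1.85 in shYY1 and 29.2 ± 2.41 in Dsh cells of ACHN (SD, n = 3), and its log2 fold changes were -0.42, -1.73 and -1.68. STC1 had 16.5 ± 0.679 CPM in shNC and 5.20 ± 0.362, 8.69 ± 0.414 and 10.3 ± 0.483 in the knockdowns (-1.68, -0.94 and -0.67). In HK2 cells STC2 went the other way, from 72.3 ± 6.78 CPM in shNC to 92.8 ± 5.65 in shYY1 and 122 ± 10.7 in Dsh cells (0.36 and 0.75), and STC1 was below the filter. All these log2 fold changes had an adjusted p under 0.05 in edgeR, from 2.64e-24 to 2.95e-04.

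Of 7 other IGFBP proteases, 4 of the 6 tested were higher in ACHN Dsh than in shNC cells and 2 lower, where 30.7% and 32% of all genes were. In HK2 Dsh cells 4 of the 5 tested were higher and 0 lower, where 25.5% and 24.3% of all genes were. The 4 were HTRA1, ADAM12, ADAM17 and CTSD in both lines. ADAM9 was lower in ACHN (-0.80, adjusted p = 5.93e-12, edgeR) and did not pass the test in HK2 Dsh cells (-0.02), and ADAM28, the other gene that was lower in ACHN, had reached the filter through shNC cells alone. ADAM12, a metalloproteinase that cuts IGFBP3 and IGFBP5, had 8.41 ± 0.710 CPM in shNC and 21.4 ± 0.649 in Dsh cells of ACHN, and 11.6 ± 2.09 and 53.4 ± 2.56 in HK2, with log2 fold changes of 1.35 and 2.20 (adjusted p = 7.61e-10 and 4.91e-18, edgeR). HTRA1, a secreted serine protease, was at 2.08 and 0.93, and CTSD, the lysosomal protease cathepsin D, at 1.95 and 1.29 in these comparisons. In shYY1 cells HTRA1 was higher in ACHN (0.95) and lower in HK2 (-0.83). ADAM28 had 1.32 ± 0.332 CPM in shNC, 0.164 ± 0.0521 in shKDM5C, 68.0 ± 1.22 in shYY1 and 0.0725 ± 0.0850 in Dsh cells of ACHN, high in shYY1 cells alone. It was at most 0.441 CPM in any HK2 library. Exons of CTSD overlap those of genes on both strands, among them PRADX, which reached at most 100 counts in a library.

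Among ligands and receptors, 3 genes had values past both thresholds, all of them low in ACHN. Only INSRR, in shKDM5C cells, did so with both groups past the filter. IGF2 had 0.304 ± 0.0654 CPM in shNC and 2.87 ± 0.451 in shYY1 cells (fitted log2 fold change 3.19), where it reached the filter through shYY1 cells alone, and failed the filter in the other 5 comparisons, and 998 of its 6259 exonic bases are shared with the readthrough gene INS-IGF2. INSR, the insulin receptor, was at 1.37 ± 0.298 CPM in shNC and 0.289 ± 0.0695 in Dsh cells of ACHN (fitted -2.21). INSRR, an insulin receptor related kinase, was lower in shKDM5C cells (-1.70) and at a fitted -1.38 in Dsh cells. Both reached the filter for Dsh through shNC cells alone. In HK2 cells INSR was at 30.4 ± 0.286 CPM in shNC and did not pass the test in any knockdown.

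**Figure D5:**
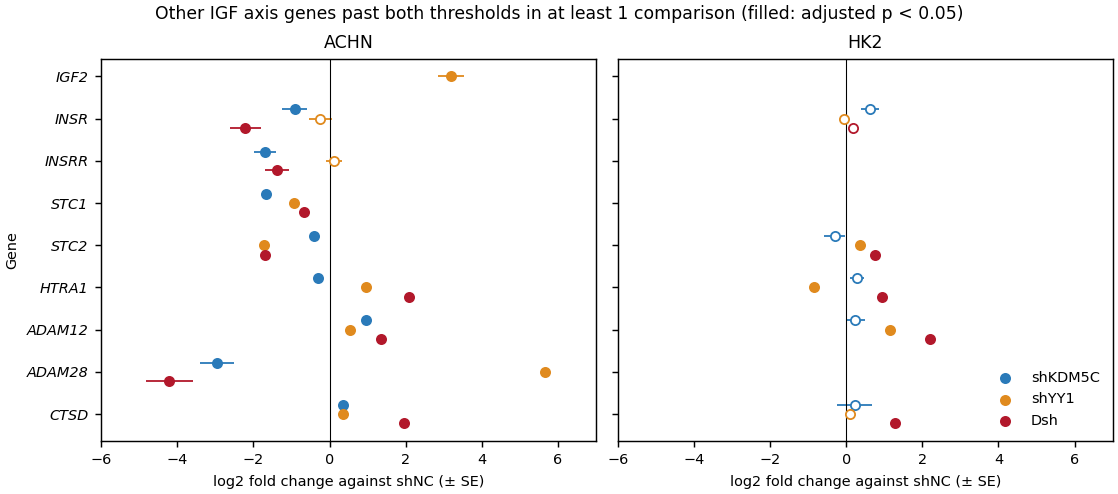
Log2 fold changes against shNC, with SE bars, of the 9 other IGF axis genes that passed both thresholds in at least 1 comparison, in ACHN (left) and HK2 (right), filled where the adjusted p was under 0.05 and left out where a gene failed the filter. IGF2 in ACHN shYY1 cells, INSR and ADAM28 in ACHN shKDM5C and Dsh cells, and INSRR in ACHN Dsh cells reached the filter in 1 group only. A filled point there is not a test result. STC2 lay left of 0 in all ACHN knockdowns and right of 0 in HK2 shYY1 and Dsh cells, and ADAM12 lay right of 0 in every called comparison.

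Over the means of the 8 groups, on the log2 scale with 0.5 CPM added, the 5 genes most like PAPPA2 among 15587 with a symbol and at least 1 CPM in some group were MIPEPP3 (Pearson r = 0.93), ADAM12 (0.92), RNF187 (0.91), UBE2E3 (0.91) and LINC02783 (0.91). The 8 points share libraries and cell lines, so these are descriptions. RNF187 had 141 CPM in HK2 shNC, 183 in shYY1 and 372 in Dsh cells, and 124, 119 and 201 CPM in the same groups of ACHN. MIPEPP3 differed little in size, between 0.694 and 1.30 CPM over all groups.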

How the data were processed

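Total RNA was sequenced in 24 libraries. The authors aligned paired-end reads to GRCh38 (Ensembl release 84) with HISAT2 2.0.5 and assigned read pairs to genes with featureCounts, whose version is 2.0.1 in the file headers and 1.5.0-p3 in the submitters' notes, without a strand option, and deposited the raw counts of each library. Symbols were mapped from the gene identifiers, and 4117 genes without a symbol held 0.243% of the counts.

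Tests used R 4.3.3 and edgeR 4.0.16 (filterByExpr, TMM scaling, quasi-likelihood F test, Benjamini-Hochberg over all genes tested), with the libraries of the groups compared, and with 12 libraries for interactions and differences between lines. Standard errors were derived from the F statistic. The fold threshold was an absolute log2 fold change of 1.5. Intervals and floors (95%, 3 counts) cover counting error only, as duplicates were not marked by molecular identifiers. The tests were also run on simulated counts with 200 changed genes. Genes were named as follows: the 10 members, KDM5C and YY1, genes of a list of 40 IGF axis genes past both thresholds in a comparison with shNC, and the 5 genes most like PAPPA2. PAPPA2 was left untested wherever HK2 libraries enter. The members and lists were chosen with earlier results of these data known. No library was left out. Alternatives were DESeq2 1.42.0, other size factors (RLE, total counts), other filters on low counts (none, or a minimum of 10 counts throughout a group), a fit with all 4 groups of a line, the replicate number as a block, each library left out and, chosen after the data were seen, counts without genes that pass the filter in 1 group only. Protein sequences were not used here.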

Additional observations from a re-analysis of the deposited data

Results flagged for a closer look

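The effect of a knockdown against shNC differed between ACHN and HK2 cells, by a test of the difference itself (edgeR, 12 libraries, ACHN minus HK2 on the log2 scale), for the following genes. For shKDM5C these were IGFBP3 (-1.69, adjusted p = 3.15e-04) and IGFBP4 (1.05, adjusted p = 0.00872). Both rest on a group in which HK2 replicate 1 stood apart, and without it the differences were -1.87 and 0.88, still past the threshold.

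For shYY1 the differences were 2.83 for PAPPA, 0.46 for IGFBP3, 1.07 for IGFBP4, -0.62 for IGFBP6 and 0.97 for IGFBP7, with adjusted p between 6.15e-17 and 3.07e-06. PAPPA was higher in ACHN shYY1 cells and lower in HK2 shYY1 cells, and so was IGFBP7.

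For Dsh they were -0.96 for PAPPA, -2.18 for IGFBP3, 1.57 for IGFBP4, -1.18 for IGFBP6, 2.81 for IGFBP7 and 0.18 for IGF1R, with adjusted p between 3.74e-21 and 0.0248. The last, for IGF1R, was lost under 10 of the alternatives, with values of 0.13 to 0.17. IGFBP4 was higher in ACHN and lower in HK2 Dsh cells. In all 3 knockdowns the targeted genes were lowered less in ACHN than in HK2 cells, and whether this has a part in these differences was not tested.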

How the results depend on the processing

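Of 116 single-gene log2 fold changes, refitted 1720 times in all under the alternatives, 1664 values stayed on their side of the threshold, with the same direction where they had passed it, 22 fell below the threshold, 17 passed it, 1 reversed past it and 16, all of PAPPA2 in comparisons without a test, moved by more than the spread. Values that had not passed the threshold could change sign. Numbers of genes called changed by more than 1.5 times only in HK2 comparisons and in the shKDM5C difference between lines. For HK2 shKDM5C against shNC 0 became 2 with DESeq2 and 2 with all 4 groups in the fit, and leaving out a library gave 0 to 5, with 5 without shKDM5C replicate 1, where IGFBP7 reversed to 0.37 (range without a library -0.43 to 0.37). Over all genes, 214 were called there by edgeR, 807 by DESeq2, 1340 with all 4 groups in the fit, 0 with the replicate number as a block and 0 to 3718 without a library. With all 4 groups in the fit, HK2 shYY1 fell from 5 to 2, HK2 Dsh against shNC from 6 to 3, and HK2 Dsh against shYY1 from 4 to 2. The fit then holds shKDM5C replicate 1. For the HK2 interaction 1 became 0 with total counts and 2 with no filter on low counts, and leaving out a library gave 1 to 4. For the shKDM5C difference between lines leaving out a library gave 2 to 4, against 2. IGF axis genes called fell from 12 to 3 in HK2 shYY1 and from 17 to 11 in HK2 Dsh cells with all 4 groups in the fit. The PAPPA2 value in HK2 Dsh cells ranged from 6.24 to 6.71 without HK2 shNC replicate 1 or 3, which held few counts of it.

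The replicate numbers did not pair the libraries: deviations of same-numbered libraries correlated between -0.0431 and 0.0325. With the replicate number as a block, the number of the 10 genes called was the same in all 14 comparisons, for example 9 in ACHN Dsh cells and 0 in HK2 shKDM5C cells.

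Counting depth limits PAPPA2 in HK2 shNC cells (17 counts), IGFBP1 throughout, and IGFBP2 and IGFBP5 in ACHN Dsh cells and in HK2. With 3 replicates whose independence was not stated, adjusted p-values may be too small.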
